A study of Mus musculus with 73 samples.

Results

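Weak pairs are reporter constructs in which a pair of weakly activating enhancers from different loci sits downstream of the same reporter gene. An enhancer was taken as weak when its score S was below 1. S is the mean, over the *Sox2*, *Lefty1* and *Tbx3* promoter libraries, of the median log2 boost index of that enhancer when it was combined with a control sequence. Of 58 enhancers with an S, 18 were weak and the other 40 are called stronger enhancers here. These 18 gave 5641 weak-pair constructs, 8.15% of the 69206 enhancer-enhancer (EE) constructs of the study and part of 110180 constructs in all. The members were thus chosen by activities measured in these samples, so the values of single enhancers in the *Sox2*, *Lefty1* and *Tbx3* libraries are given as a description and were not tested.

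The constructs were assayed in a massively parallel reporter assay (MPRA), in which each construct carries barcodes that are counted as RNA-derived cDNA and as plasmid DNA (pDNA). All samples came from wild-type E14TG2a, an established line of mouse embryonic stem cells, grown in medium with 2i and LIF, which hold the cells in naive pluripotency. Each of 8 plasmid libraries carried the promoter of 1 gene, was transfected transiently in 3 biological replicates and was collected after 24 hours. Sequences shuffled or drawn at random served as 20 controls, and every construct held 2 fragments in position 1 and position 2, either of which could be an enhancer (E) or a control (C).

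Enhancers are DNA elements that raise transcription from a promoter through the transcription factors and cofactors they bind, and genes of the pluripotency network are commonly surrounded by clusters of them. Within such a cluster the elements differ in strength when each is tested alone, and how the signals of weak elements combine is a question that cannot be read from the single elements. Under additivity, the activity that each enhancer adds to the promoter is summed, whereas under multiplicativity the fold changes are multiplied. Of the promoters, *Sox2*, *Nanog*, *Klf2* and *Tbx3* belong to transcription factors of naive pluripotency, *Otx2* to a factor of the exit from that state, *Fgf5* to a growth factor of the later epiblast and *Lefty1* to an inhibitor of Nodal signalling. *Ap1m1*, a housekeeping gene, encodes a subunit of a clathrin adaptor complex.

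The 18 weak enhancers came from 8 of the 9 loci, and none of the 4 enhancers of the *Klf2* locus was weak. The *Otx2* locus held 4 weak enhancers of 7 and the *Pou5f1* locus 4 of 9. *Sox2*, *Tbx3*, *Nodal* and *Lefty1* each held 2, and *Fgf5* and *Nanog* each held 1. Coordinates are in mm10 (GRCm38) and give the element as designed, 450 bp long. The cloned product is somewhat shorter, since it was amplified with primers that lie in the outer bases of the element. S was lowest for Nodal_E157 (0.27), which lies 11607 bp from *Nodal* on chromosome 10 from 61405916 to 61406365. It was 0.30 for Lefty1_E087 (chromosome 1 from 180889795 to 180890244) and 0.31 for both Otx2_E110 (chromosome 14 from 48654527 to 48654976) and Nodal_E162 (chromosome 10 from 61423210 to 61423659). Pou5f1_E079 (chromosome 17 from 35497066 to 35497515), Pou5f1_E077 (from 35496631 to 35497080) and Pou5f1_E078 (from 35496908 to 35497357) had scores of 0.43, 0.52 and 0.56. These 3 fragments overlap one another by 15 to 292 bp and so share sequence, although constructs that pair them are of the same locus and are not weak pairs as defined here.

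Otx2_E112 (chromosome 14 from 48655216 to 48655665), Lefty1_E095 (chromosome 1 from 180936711 to 180937160) and Otx2_E109 (chromosome 14 from 48654012 to 48654461) followed with S of 0.62, 0.65 and 0.73. Nanog_E065 (chromosome 6 from 122663801 to 122664250), Fgf5_E037 (chromosome 5 from 98293317 to 98293766) and Tbx3_E205 (chromosome 5 from 119658334 to 119658783) had 0.75, 0.76 and 0.80. The score was 0.85 for Otx2_E114 (chromosome 14 from 48664703 to 48665152) and 0.89 for Pou5f1_E080 (chromosome 17 from 35502739 to 35503188). The members just inside the threshold were Sox2_E181 (0.92, chromosome 3 from 34759891 to 34760340), Tbx3_E206 (0.92, chromosome 5 from 119660530 to 119660979) and Sox2_E178 (0.99, chromosome 3 from 34755230 to 34755679). Those just outside were Otx2_E115 (1.03), Nodal_E158 (1.07) and Fgf5_E039 (1.07). The threshold thus divides a continuous range of scores.

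In the RefSeq annotation, 3 of the 18 weak fragments lie in the body of a protein-coding gene, namely Nodal_E162 in *Nodal*, Lefty1_E095 in *Lefty1* and Otx2_E114 in *Otx2*, and 15 lie outside. Of the 40 stronger fragments, 10 lie in such a gene body. The median distance to the gene that names the locus was 8813.5 bp for weak and 8721 bp for stronger fragments. Some weak fragments border on much stronger ones. Otx2_E110 shares 88 bp with Otx2_E111, whose S was 4.03, and Otx2_E112 shares 123 bp with the other end of the same fragment. Sox2_E181 shares 63 bp with Sox2_E182, whose S was 2.33.

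The enhancers of the most active pair and of the least active pair are shown by the primers with which the study amplified them from genomic DNA, which mark the ends of each cloned fragment. These pairs are Otx2_E114 with Tbx3_E206 and Nodal_E157 with Otx2_E110, and primers are given 5′ to 3′.
Otx2_E114 forward: tctccacagcgagcttagataataaac
Otx2_E114 reverse: aattgaccgttagatataaggctgtgc
Tbx3_E206 forward: ccagatctgtcactcattaaatgaccc
Tbx3_E206 reverse: cctgccagttgtgtgtaaataataggg
Otx2_E110 forward: gtcaaggaccaatcgttaagcactttc
Otx2_E110 reverse: agaagcaagttctgggatggagg
Nodal_E157 forward: cttggaaagcacacaagtttggc
Nodal_E157 reverse: ctttcagctctttgactctaaagccc
The end of Otx2_E114 that the reverse primer marks overlaps a RefSeq promoter window of *Otx2*, and no other of the 58 enhancers overlapped a window in the table used here, which does not cover every promoter. The shared 43 bases before the annotated start are shown on the minus strand, the strand of the gene, with the reverse primer in capitals. The bases before the capitals lie outside the cloned product.
Otx2_E114 chr14:48665110-48665152: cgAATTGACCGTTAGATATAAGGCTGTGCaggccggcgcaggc

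The promoter is shown for 3 of the libraries whose values played no part in S, those whose RefSeq window lies wholly in the designed promoter fragment. Each window is the 250 bases before an annotated start on the plus strand of GRCm38.p6, and *Nanog* has a second start further downstream. Capitals mark matches on either strand to any of 5 motifs. The motif GGGCGG is known as the GC box, whereas GGGTGTG occurs in binding sites of Krüppel-like factors. The motif CATTGT forms the core of many Sox sites. Nuclear receptors bind AAGGTCA, and POU factors bind the octamer ATGCAAAT.
Klf2 chr8:72318812-72319061: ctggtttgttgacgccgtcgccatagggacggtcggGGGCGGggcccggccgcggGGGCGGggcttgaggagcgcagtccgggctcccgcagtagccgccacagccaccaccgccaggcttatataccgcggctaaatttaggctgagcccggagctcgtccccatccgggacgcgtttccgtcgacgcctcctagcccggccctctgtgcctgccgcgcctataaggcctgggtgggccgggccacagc
Fgf5 chr5:98253934-98254183: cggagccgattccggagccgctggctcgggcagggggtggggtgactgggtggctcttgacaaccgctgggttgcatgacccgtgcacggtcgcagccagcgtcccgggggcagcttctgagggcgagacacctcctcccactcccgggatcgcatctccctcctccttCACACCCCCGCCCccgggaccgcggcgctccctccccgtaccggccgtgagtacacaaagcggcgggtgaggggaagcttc
Nanog chr6:122707239-122707488: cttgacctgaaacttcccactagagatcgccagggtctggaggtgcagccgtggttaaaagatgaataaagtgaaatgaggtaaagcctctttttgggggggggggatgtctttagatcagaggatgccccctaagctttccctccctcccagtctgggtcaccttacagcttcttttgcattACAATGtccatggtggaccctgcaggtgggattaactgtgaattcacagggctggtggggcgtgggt
The *Klf2* window holds 2 matches to GGGCGG. The *Fgf5* window holds GGGTGTG and GGGCGG on the minus strand in a pair of matches that join into a single capital run, and the *Nanog* window holds CATTGT on the minus strand. Of 32851 RefSeq windows, 32.7% hold GGGCGG, 6.93% GGGTGTG, 10.7% CATTGT, 4.08% AAGGTCA and 1.60% ATGCAAAT. These matches are a description of the sequence and were not compared with the activities. Windows for *Lefty1*, *Tbx3* and *Ap1m1* were not used here, and the genomic sequence of the enhancers between their primers was not analysed here.

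Of 137 possible weak pairs of different loci, 136 were measured in at least 1 library, 108 in all 5 libraries outside S (*Klf2*, *Otx2*, *Fgf5*, *Nanog* and *Ap1m1*) and 101 in all 8. Each pair can occur in 8 arrangements of position and orientation, and the share of these possible constructs that was measured ranged from 58.0% (*Fgf5*) to 73.0% (*Ap1m1*). Activity, the normalised cDNA to pDNA ratio, was above 0 in all replicates for 5605 constructs. The 36 constructs at 0 in a replicate have no log2 value. Of these, 34 were in the *Fgf5* library, 1 in *Lefty1* and 1 in *Tbx3*. The number of barcodes and reads per construct was not analysed here, which leaves the depth unknown. The median SD of a weak-pair construct over replicates was 0.55 log2 units in the *Fgf5* library and between 0.13 (*Ap1m1*) and 0.25 (*Tbx3*) in the other 7.

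To obtain the boost index, each activity was divided by the baseline and log2-transformed. The baseline is the median of the control-control (CC) constructs of the same library. The baseline rested on 219 to 477 CC constructs in 7 libraries. In the *Fgf5* library it rested on 23 of 60, since the others were at 0 in a replicate. Only CC constructs active enough to be counted set the *Fgf5* baseline, and single weak enhancers lay below it there, with a median boost index of -0.53 and 16 of the 18 enhancers measured. Means over libraries and the rankings of pairs are therefore given with and without *Fgf5*.

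The median weak pair was more active than the controls in each replicate of 7 libraries, and *Fgf5* was the exception. With the *Sox2* promoter, the median boost index over 643 constructs was 1.41, 1.33 and 1.44 in the 3 replicates and 1.37 for the mean activity (SD 0.05, n = 3). It was 1.19, 1.19 and 1.38 with *Lefty1* (1.28, SD 0.11) and 1.32, 1.296 and 1.0999 with *Tbx3* (1.29, SD 0.12). These promoters, the ones used for S, had the highest values. Among the other libraries, the median was 0.70, 0.81 and 0.77 with *Nanog* (0.79, SD 0.06), 0.67, 0.55 and 0.78 with *Otx2* (0.72, SD 0.11) and 0.59, 0.69 and 0.71 with *Klf2* (0.68, SD 0.07). With *Ap1m1* it was 0.52, 0.54 and 0.54 (0.51, SD 0.01), and with *Fgf5* it was 0.34, -0.01 and -0.26 (0.10, SD 0.30). *Fgf5* is thus the only library in which replicates fell on different sides of the baseline, and 45.3% of its weak pairs lay at or below it.

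Over the 5 libraries not used for S, the mean of these medians was 0.56 (SD 0.28 over libraries, n = 5), above 0 in 5 of 5 libraries. An exact two-sided sign-flip permutation test over libraries gave p = 0.0625, the smallest that 5 libraries allow, and 0.1125 after Benjamini-Hochberg adjustment over the 9 tests made. With 5 libraries this test cannot reach the 0.05 threshold for any effect, and a p of 0.0625 says only that all 5 had the same sign. Without replicate 1 the *Fgf5* median turned to -0.095, which left 4 of 5 libraries above 0 (p = 0.125 in the same exact permutation test). Without *Fgf5* the mean was 0.67 over 4 libraries.

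For comparison, the same 18 enhancers beside a control had a median boost index of 0.67 with *Sox2*, 0.58 with *Lefty1* and 0.64 with *Tbx3*, the values that define them. Outside these libraries it was 0.40 with *Nanog*, 0.40 with *Otx2*, 0.37 with *Klf2* and 0.27 with *Ap1m1*. With *Nanog*, constructs with a second weak enhancer in place of the control thus had a median of 0.79 where those with the control had 0.40, and with *Ap1m1* these medians were 0.51 and 0.27. Constructs of a library nevertheless spread widely. From the 5th to the 95th percentile, weak pairs ranged from 0.44 to 2.31 with *Sox2*, from -0.13 to 1.48 with *Nanog* and from -0.30 to 1.14 with *Ap1m1*. The highest weak-pair construct in any library had a boost index of 3.35 (*Lefty1*) and the lowest -2.50 (*Sox2*).

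Few weak pairs stood clear of the controls, in contrast to EE constructs at large. A construct was counted when its activity was above the 95th percentile of the CC constructs in each of the 3 replicates. With *Sox2*, 220 of 643 weak pairs (34.2%) passed, where 87.7% of all EE constructs did. With *Lefty1*, 177 of 794 (22.3%) passed against 83.3% of all EE constructs, and with *Tbx3* 150 of 702 (21.4%) against 81.1%. The counts were 121 of 700 (17.3%) with *Nanog* against 71.2%, 96 of 687 (14.0%) with *Klf2* against 65.7% and 81 of 677 (12.0%) with *Otx2* against 65.7%. With *Ap1m1*, 75 of 800 (9.38%) passed against 25.7%, and with *Fgf5* 1 of 602 (0.166%) against 46.7%. The *Sox2*, *Lefty1* and *Tbx3* libraries chose the members for low single-enhancer values, so a low share was built in there. The paper found boost indices of enhancer pairs to correlate strongly between developmental promoters. A low share was thus partly built in with *Klf2*, *Otx2*, *Nanog* and *Fgf5* as well. Among single weak enhancers the share was 6.71% with *Sox2*, 4.33% with *Nanog* and 2.72% with *Ap1m1*, below that of weak pairs in each of these libraries.

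A weak pair was mostly more active than the stronger of its enhancers alone. The gain, the log2 ratio of the pair's activity over the higher of the 2 single-enhancer medians in the same positions, had a median of 0.49 with *Sox2* (0.50, 0.41 and 0.46 by replicate) and with *Tbx3* (0.50, 0.48 and 0.46), and of 0.47 with *Lefty1* (0.48, 0.41 and 0.50). It was 0.21 with *Nanog* (0.18, 0.21 and 0.27), 0.19 with *Klf2* (0.20, 0.21 and 0.19), 0.17 with *Otx2* (0.20, 0.14 and 0.19) and 0.12 with *Ap1m1* (0.13, 0.10 and 0.13). *Fgf5* again varied most between replicates, with 0.49, 0.31 and 0.11 around a median of 0.40. All 24 medians of a library and replicate were above 0, but those with *Sox2*, *Lefty1* and *Tbx3* are a description only. The single-enhancer values that enter the gain there are the ones that chose the members for being low. Over the 5 libraries not used for S the mean gain was 0.22 (SD 0.11 over libraries, n = 5, exact sign-flip permutation test, p = 0.0625, adjusted p = 0.1125), and it was 0.17 without *Fgf5*.

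The share of weak pairs above the stronger single enhancer was close to that of EE constructs in general. It was 85.7% of 643 with *Sox2* against 84.8% of all EE constructs, 80.5% of 794 with *Lefty1* against 81.3% and 83.8% of 702 with *Tbx3* against 83.9%. With *Klf2* it was 73.1% of 687 against 72.4%, with *Otx2* 70.9% of 677 against 72.8% and with *Nanog* 71.3% of 700 against 69.9%. With *Ap1m1*, 65.5% of 800 weak pairs were above the stronger single enhancer against 65.7%, and with *Fgf5* 69.7% of the 511 with both single values against 80.2%. A pair of weak enhancers thus exceeded its better member about as often as any other pair did in 7 libraries, and the weak pairs' own share was not tested against the rest.

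To ask whether the gain matched the sum of the parts, the observed activity was divided by the expected additive activity, the sum of both single-enhancer medians minus the baseline. The expectation was above 0 for 5476 weak-pair constructs and at or below 0 for 38, which have no log2 ratio. The median log2 ratio was 0.19 with *Sox2* (SD 0.07, n = 3), 0.22 with *Lefty1* (SD 0.02) and 0.22 with *Tbx3* (SD 0.01). In these libraries the observed activity was above the sum in each replicate. The sum there is built from the single-enhancer values that chose the members for being low, so this excess is a description only. The ratio was 0.04 with *Klf2* (SD 0.04), -0.01 with *Otx2* (SD 0.05), 0.06 with *Nanog* (SD 0.07) and 0.05 with *Ap1m1* (SD 0.03), all within about the spread between replicates except that of *Ap1m1*, whose replicates were 0.05, -0.01 and 0.02. With *Fgf5* it was 1.28 (SD 0.13), where single weak enhancers lay below the baseline that is subtracted.

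Over the 5 libraries not used for S, the mean log2 ratio of observed over additive activity was 0.28 (SD 0.56 over libraries, n = 5, above 0 in 4 of 5, exact sign-flip permutation test, p = 0.125, adjusted p = 0.161). Without *Fgf5* it was 0.03, so that the mean rested on that library. Relative to the sum of their single activities, weak pairs in the remaining 4 libraries stayed near 1-fold.

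Deviations of single constructs from additivity were counted where the observed activity was more than 1 propagated SD from the expectation, the SD being that of both single enhancers and of the CC constructs. Above the expectation were 116 of 643 weak pairs with *Sox2* (18.0%, all EE constructs 28.7%), 141 of 794 with *Lefty1* (17.8%, all EE constructs 30.7%) and 118 of 702 with *Tbx3* (16.8%, all EE constructs 34.9%). With *Fgf5* there were 120 of 473 (25.4%, all EE constructs 39.2%). By replicate the share with *Fgf5* was 25.1%, 7.46% and 4.85%, and with *Sox2* 18.4%, 12.0% and 9.33%, so that in these libraries the share of the mean activity was near that of replicate 1 and above the others. The other libraries held few. There were 39 of 700 with *Nanog* (5.57%, all EE constructs 7.01%), 24 of 687 with *Klf2* (3.49%, all EE constructs 6.21%), 18 of 661 with *Otx2* (2.72%, all EE constructs 5.33%) and 15 of 800 with *Ap1m1* (1.88%, all EE constructs 2.62%). In all 8 libraries the share of supra-additive constructs was lower among weak pairs than among EE constructs at large. The propagated SD can be large beside the small expectation of weak pairs, so this share does not measure how they combine.

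Sub-additive weak pairs were rarer still. There were 10 of 643 with *Sox2* (1.56%, all EE constructs 8.09%), 11 of 794 with *Lefty1* (1.39%, all EE constructs 6.00%) and 10 of 702 with *Tbx3* (1.42%, all EE constructs 6.27%). With *Klf2* there were 13 of 687 (1.89%, all EE constructs 10.1%), with *Otx2* 16 of 661 (2.42%, all EE constructs 11.0%) and with *Nanog* 23 of 700 (3.29%, all EE constructs 13.2%). With *Ap1m1* there were 10 of 800 (all EE constructs 4.43%), and with *Fgf5* 0 of 473, where 3.93% of all EE constructs were sub-additive. The limit is in units of activity and includes the SD of the CC constructs. Beside the small expectation of weak pairs it can be wide. With *Fgf5* the median log2 ratio was 1.28, yet only 25.4% of weak pairs were called above the expectation. A lower limit that wide can be out of reach, so the low shares cannot be read as a trait of weak pairs.

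The multiplicative expectation is the product of both single-enhancer medians over the baseline. It came as near to the weak pairs as the additive one, unlike for strong pairs. The smaller the single effects, the less the sum and the product differ. Small differences were thus partly built in by choosing weak enhancers, and they do not show that weak pairs combine by another rule. With *Sox2*, *Lefty1* and *Tbx3* both expectations also rest on the values that chose the members. The median absolute log2 distance of weak pairs from the additive expectation minus that from the multiplicative one was 0.06 with *Sox2*, 0.08 with *Lefty1* and 0.08 with *Tbx3*, so that the product was nearer. The difference was 0.01 with *Klf2*, -0.01 with *Otx2*, 0.01 with *Nanog* and 0.00 with *Ap1m1*, and 0.20 with *Fgf5*. Over the 5 libraries not used for S the mean was 0.04 (SD 0.09 over libraries, n = 5, exact sign-flip permutation test, p = 0.1875, adjusted p = 0.1875), and 0.01 without *Fgf5*. For pairs of stronger enhancers of different loci the same difference was -0.76 with *Sox2*, -0.50 with *Lefty1* and -0.33 with *Tbx3*, and between -0.37 and -0.03 in the other 5 libraries, so that the sum was nearer in every library. The difference between both classes was not tested. The median log2 ratio of observed over multiplicative activity was between -0.09 and 0.05 for weak pairs in the 7 libraries other than *Fgf5*. For pairs of stronger enhancers it fell as low as -1.09 with *Sox2*.

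Weak pairs were then compared with mixed pairs of 1 weak and 1 stronger enhancer and with pairs of stronger enhancers, all of different loci. The median log2 ratio of observed over additive activity in weak pairs minus that in mixed pairs was 0.07 with *Nanog* (SD 0.05, n = 3), 0.03 with *Klf2* (SD 0.04), 0.01 with *Otx2* (SD 0.04), 0.03 with *Ap1m1* (SD 0.03) and 0.73 with *Fgf5* (SD 0.19). With *Klf2*, *Otx2* and *Ap1m1* 1 replicate each was below 0. The mean difference over these libraries was 0.17 (SD 0.31 over libraries, n = 5, exact sign-flip permutation test, p = 0.0625, adjusted p = 0.1125), and 0.03 without *Fgf5*. Without replicate 1, 4 of 5 libraries were above 0 (exact permutation test, p = 0.125). Against pairs of stronger enhancers the difference was 0.15 with *Nanog* (SD 0.07, n = 3), 0.12 with *Ap1m1* (SD 0.05), 0.08 with *Klf2* (SD 0.05), 0.05 with *Otx2* (SD 0.07) and 0.79 with *Fgf5* (SD 0.22). Its mean was 0.24 (SD 0.31 over libraries, n = 5, exact sign-flip permutation test, p = 0.0625, adjusted p = 0.1125), and 0.10 without *Fgf5*. In the libraries used for S, this difference was -0.01 with *Sox2*, -0.08 with *Lefty1* and -0.12 with *Tbx3*. There the pairs of stronger enhancers, with a median ratio of 0.20, 0.30 and 0.34, stood as far or further above the sum than weak pairs did.

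With most promoters, a pair of weak enhancers remained below a single stronger enhancer beside a control. The median boost index of weak pairs minus that of single stronger enhancers was -0.33 with *Klf2* (SD 0.06, n = 3), -0.35 with *Otx2* (SD 0.04), -0.47 with *Nanog* (SD 0.05) and -1.57 with *Fgf5* (SD 0.13). With *Ap1m1* it was -0.01 (SD 0.06), and the replicates, 0.01, -0.07 and 0.04, lay on both sides of 0. The mean over these 5 libraries was -0.55 (SD 0.60 over libraries, n = 5, exact sign-flip permutation test, p = 0.0625, adjusted p = 0.1125), and -0.29 without *Fgf5*. Without replicate 1 or without replicate 2, 1 of the 5 libraries was above 0 (exact permutation test, p = 0.125 in each case). In the libraries that define S it was -1.18, -1.05 and -0.85. Both classes were cut by S, and the paper found boost indices of enhancer pairs to correlate strongly between developmental promoters. A value below 0 was thus partly built in with *Klf2*, *Otx2*, *Nanog* and *Fgf5* as well. The groups overlapped: the share of weak pairs above the median single stronger enhancer was 48.6% with *Ap1m1*, 20.1% with *Klf2*, 15.6% with *Nanog* and 15.4% with *Otx2*.

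Strength varied among the weak pairs along with S itself. The weak enhancers were divided into the 9 of lower and the 9 of higher S, as a description with no test, since S was measured in these samples. With *Nanog*, the median boost index was 0.51 for pairs with both of lower S (SD 0.07, n = 3), 0.80 for pairs of each kind (SD 0.05) and 1.14 for pairs with both of higher S (SD 0.08). The order was the same with *Klf2*, at 0.52, 0.66 and 0.87, and with *Otx2*, at 0.56, 0.73 and 0.89. With *Ap1m1* the values lay close together, at 0.46, 0.52 and 0.54. The share above the 95th percentile of CC constructs in each replicate with *Nanog* was 4.82%, 12.7% and 40.0% in these tiers, and with *Ap1m1* 8.70%, 8.43% and 12.2%.

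Single enhancers of the lowest and highest S differed in how far they kept their rank with the other promoters. Nodal_E157 beside a control had a median boost index of 0.17 with *Klf2*, 0.18 with *Otx2*, 0.15 with *Nanog* and 0.29 with *Ap1m1*. Lefty1_E087 had 0.22, 0.23, 0.04 and 0.06 in the same libraries. Otx2_E110 lay below the baseline with 3 of them, at -0.10 with *Klf2*, -0.30 with *Otx2* and -0.29 with *Nanog*, and at 0.09 with *Ap1m1*. At the other end, Sox2_E178 had the highest S but 0.29 with *Klf2*, 0.39 with *Otx2*, 0.50 with *Nanog* and 0.12 with *Ap1m1*, against medians over the weak enhancers of 0.32, 0.39, 0.46 and 0.25. Tbx3_E206 had 0.68, 0.73, 0.76 and 0.53, and Sox2_E181 0.45, 0.37, 0.57 and 0.27. The highest single weak enhancer in each of these 4 libraries was Otx2_E114, at 0.75, 0.76, 0.85 and 0.69. With *Ap1m1* this was above the median of single stronger enhancers (0.53). It was below that median with *Klf2* (1.01), *Otx2* (1.07) and *Nanog* (1.26). The name weak thus refers to S alone and does not hold for this enhancer with *Ap1m1*.

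Otx2_E114 and Nanog_E065 are described in this and the next paragraph because of their values, seen beforehand. Over all its weak pairs, Otx2_E114 had a median boost index of 1.09 with *Klf2*, 1.07 with *Otx2*, 1.21 with *Nanog* and 0.99 with *Ap1m1*, the highest of the 18 in each. Otx2_E110 was lowest with *Klf2* (0.32), *Otx2* (0.05) and *Nanog* (0.20), and Nanog_E065 with *Ap1m1* (0.14). Nanog_E065 took different places by library. With *Sox2* its pairs had a median of 1.81, close to the highest of the 18 (Sox2_E178, 1.86). With *Klf2* they had 0.57, between the lowest (0.32) and the highest (1.09). In 7 libraries the pairs of each of the 18 enhancers had a higher median than that enhancer alone, and with *Fgf5* so did those of the 16 with a single value. Of the 108 pairs measured in all 5 libraries outside S, 13 held Otx2_E114, 9 Otx2_E110 and 15 Nanog_E065. In their ranking, Otx2_E114 was in 9 of the 20 highest and in 0 of the 20 lowest. Otx2_E110 was in 6 of the 20 lowest and 0 of the 20 highest, and Nanog_E065 was in 3 of the highest and 5 of the lowest. Lefty1_E087, Nodal_E162 and Pou5f1_E079 were each in 5 of the lowest as well. Without *Fgf5*, Otx2_E114 was in 10 of the 20 highest and 0 of the 20 lowest, Otx2_E110 in 7 of the lowest and 0 of the highest, and Nanog_E065 in 1 of the highest and 4 of the lowest.

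The mean boost index over the 5 libraries outside S ranged from 0.02 to 1.18 among these 108 pairs, with a median of 0.52. The highest, 1.18 (SD 0.02 over replicates, n = 3), belonged to Otx2_E114 and Tbx3_E206, whose primers are given above. With the *Klf2* promoter, the activity of this pair averaged over 7 constructs was 1.04, 0.921 and 0.967 in the 3 replicates, a boost index of 1.31 (SD 0.03). With *Nanog* it was 1.02, 0.879 and 0.982 (1.56, SD 0.07), with *Otx2* 1.11, 1.04 and 1.05 (1.38, SD 0.16), and with *Ap1m1* 1.39, 1.43 and 1.15 (1.17, SD 0.24). With *Fgf5* the activity was 0.270, 0.288 and 0.341, and the boost index 0.49 (SD 0.18). The pair was thus above the baseline in each replicate of all 5 libraries. With *Sox2*, *Lefty1* and *Tbx3* its boost index was 1.58, 2.296 and 2.01.

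Next were Otx2_E114 with Tbx3_E205 (1.18, SD 0.11), Lefty1_E095 with Tbx3_E206 (1.098, SD 0.18), Nanog_E065 with Otx2_E114 (1.06, SD 0.08) and Otx2_E114 with Sox2_E178 (1.05, SD 0.05). Relative to the sum of their single activities, and without *Fgf5*, the mean log2 ratio of these pairs was 0.20 for Otx2_E114 with Tbx3_E206 and with Tbx3_E205, 0.29 for Lefty1_E095 with Tbx3_E206, 0.16 for Nanog_E065 with Otx2_E114 and 0.19 for Otx2_E114 with Sox2_E178. Without *Fgf5* the mean boost index was 1.36 for Otx2_E114 with Tbx3_E206, 1.298 for Otx2_E114 with Tbx3_E205 and 1.27 for Lefty1_E095 with Tbx3_E206, still the 3 highest of 108. It was 1.07 for Nanog_E065 with Otx2_E114, then at rank 7, and 1.14 for Otx2_E114 with Sox2_E178, at rank 5. These pairs were chosen for their high values, so the values are a description.

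The lowest means were 0.02 for Nodal_E157 with Otx2_E110 (SD 0.22 over replicates, n = 3), 0.03 for Otx2_E110 with Tbx3_E206 (SD 0.08), 0.04 for Nanog_E065 with Otx2_E110 (SD 0.24), 0.04 for Lefty1_E087 with Nodal_E162 (SD 0.04) and 0.08 for Lefty1_E087 with Nodal_E157 (SD 0.15). The last 2 were low through *Fgf5*, where their boost indices were -1.24 and -1.15. Without *Fgf5* their means were 0.37 and 0.39, at ranks 15 and 18 from the lowest of 108. Nanog_E065 with Otx2_E110 was then lowest (0.0099), followed by Nodal_E157 with Otx2_E110 (0.013), and Otx2_E110 with Tbx3_E206 was at rank 4 (0.14). Nodal_E157 with Otx2_E110 had activities of 0.394, 0.294 and 0.339 with the *Otx2* promoter over 8 constructs, a boost index of -0.26 (SD 0.26), below the baseline in each replicate. With *Ap1m1* its activities were 0.814, 0.635 and 0.764 (0.32, SD 0.07), above the baseline in each replicate. Otx2_E110 with Tbx3_E206 had 0.336, 0.276 and 0.291 with *Nanog* (-0.11, SD 0.06) and 0.911, 0.808 and 0.828 with *Ap1m1* (0.53, SD 0.06). Tbx3_E206 therefore occurred both in the highest pair and in a pair among the lowest, with Otx2_E114 and Otx2_E110 as its partners.

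Otx2_E110 with Tbx3_E206 was also the pair with the lowest observed over additive activity, with a mean log2 ratio of -0.21 over the 5 libraries outside S and -0.40 without *Fgf5*. The ratio was -0.31 with *Klf2*, -0.59 with *Otx2*, -0.68 with *Nanog* and 0.00 with *Ap1m1*, and it was also below 0 with *Sox2* (-0.51), *Lefty1* (-0.45) and *Tbx3* (-0.16). Nanog_E065 with Otx2_E112 (-0.08, or -0.21 without *Fgf5*) and Nanog_E065 with Pou5f1_E080 (-0.06, or -0.13 without *Fgf5*) were next in the ranking with *Fgf5*. Without it they were at ranks 7 and 15 from the lowest of 84, whereas Otx2_E110 with Tbx3_E206 remained at rank 1. The highest ratios were those of Otx2_E110 with Pou5f1_E079 (1.251, or 0.58 without *Fgf5*), Nodal_E157 with Pou5f1_E079 (0.99, or 0.05) and Pou5f1_E079 with Tbx3_E205 (0.76, or 0.05), of 84 pairs with a ratio in all 5 libraries. Without *Fgf5* the pair of Otx2_E110 and Pou5f1_E079 was still at rank 1 of these 84, and the other pairs were at ranks 23 and 22. With *Fgf5* alone their ratios were 3.95, 4.79 and 3.59. Pairs with no *Fgf5* ratio, among them those of Lefty1_E087 and Lefty1_E095, are left out of both rankings. Of these, Lefty1_E095 with Tbx3_E206 had 0.29 without *Fgf5*. Pou5f1_E079 with Tbx3_E205 rests on 1 construct per library, and Otx2_E110 with Pou5f1_E079 on 1 construct with *Klf2*, where its ratio was 1.54, and 1 with *Otx2*, where it was 0.13.

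Counted per pair, with the mean over its constructs above the 95th percentile of CC constructs in each replicate, 42 of 105 weak pairs passed with *Sox2* (all EE pairs 90.3%), 29 of 130 with *Lefty1* (85.1%) and 18 of 123 with *Tbx3* (82.0%). There were 15 of 129 with *Nanog* (all EE pairs 71.7%), 10 of 112 with *Otx2* (67.8%), 9 of 117 with *Klf2* (67.1%), 9 of 134 with *Ap1m1* (21.4%) and 0 of 120 with *Fgf5* (44.0%). In all, 58 of the 136 pairs passed in at least 1 library and 78 in none. Otx2_E114 with Tbx3_E206 and Lefty1_E095 with Tbx3_E206 passed in 7 libraries, the most of any weak pair, and *Fgf5* was the exception for both. Of the 7 pairs that passed in 5 or more libraries, 6 contain Otx2_E114, whose other partners there were Fgf5_E037, Lefty1_E095, Sox2_E178, Tbx3_E205 and Pou5f1_E080. A single pair had no library above the baseline. It was Lefty1_E087 with Pou5f1_E078, measured once, with *Ap1m1*, at -0.01. This pair and the list of 7 were picked after their values were seen.

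Differences between the arrangements of a weak pair were small beside the spread between pairs. With the enhancer of higher S in position 1, the boost index exceeded that of the same pair in the other order by a median of 0.09 with *Otx2* (SD 0.05, n = 3), and the median was between -0.01 and 0.01 in the other 7 libraries. The mean over 8 libraries was 0.01 (SD 0.03 over libraries, n = 8, above 0 in 6 of 8, exact sign-flip permutation test, p = 0.09375, adjusted p = 0.141), where 8 libraries allow a smallest p of 0.0078125. This mean turned to -0.019 without replicate 1 and to -0.0054 without replicate 2. With weak enhancers defined by S below 0.75 it was 0.11, above 0 in 7 of 8 libraries (exact permutation test, p = 0.0156). The 4 orientations of the fragments had medians that spanned 0.07 log2 units with *Ap1m1*, 0.08 with *Sox2*, 0.09 with *Otx2*, 0.12 with *Klf2* and 0.13 with *Nanog*. The span was 0.16 with *Fgf5*, 0.19 with *Lefty1* and 0.22 with *Tbx3*. Pairs with both fragments in the plus orientation were lowest in 6 libraries and highest with *Sox2*.

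Weak pairs from the same locus, 487 constructs over all libraries, did not stand above those from different loci. Their median log2 ratio of observed over additive activity differed by -0.03 with *Klf2* (SD 0.07, n = 3), -0.01 with *Otx2* (SD 0.04), -0.05 with *Nanog* (SD 0.06), -0.03 with *Ap1m1* (SD 0.04) and 0.03 with *Fgf5* (SD 0.14). The *Fgf5* replicates, 0.27, 0.53 and 0.30, all lay above the value of the mean activity, which ranged from 0.0012 to 0.51 on leaving out a replicate. The mean was -0.02 (SD 0.03 over libraries, n = 5, exact sign-flip permutation test, p = 0.1875, adjusted p = 0.1875), and -0.03 without *Fgf5*. In the libraries used for S it was -0.09 with *Sox2*, -0.17 with *Lefty1* and 0.05 with *Tbx3*. The direction of this mean turned under several alternatives given at the end.

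Across libraries, the ranking of weak pairs was partly shared. Pearson's R of the boost indices of the same pairs in 2 libraries was highest between *Otx2* and *Nanog* (0.868) and had a median of 0.663 over the 21 combinations of the 7 libraries other than *Fgf5*, across 105 to 128 pairs. It was lowest between *Sox2* and *Ap1m1* (-0.04). With *Fgf5* it ranged from -0.12 (*Ap1m1*) to 0.765 (*Sox2*). For the log2 ratio of observed over additive activity the median was 0.454 without *Fgf5*, the highest value 0.610 (*Sox2* and *Lefty1*) and the lowest -0.10 (*Sox2* and *Ap1m1*). Pairs share enhancers and each library shares its baseline and single-enhancer values, so these are descriptions across pairs that are not independent.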

How the data were processed

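The members, enhancer lists and tests were chosen with earlier results of these data known. The authors sequenced barcodes of 8 libraries in 48 cDNA and 16 pDNA samples, with 9 inverse-PCR samples that link barcodes to fragments, 73 in all. Each cDNA was sequenced in 2 runs, so the 48 cDNA samples stand for 3 replicates of each of 8 libraries. Per the methods, inverse-PCR reads were aligned with Bowtie2 to a custom genome of the enhancer and control sequences, whose coordinates are in mm10, barcodes were clustered with Starcode, and barcodes with several identities were removed. Barcode counts were divided by the total of their sample. The deposited activity is the ratio of cDNA to pDNA, averaged by the authors over at least 5 barcodes with at least 8 pDNA counts each, for each of 3 biological replicates made on different days. The deposited average over replicates equals their geometric mean. The table also holds the authors' own baselines, boost indices, expected activities and cooperativity values, which were not used.

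All medians were computed in Python 3.11.15 with numpy 2.4.6, pandas 2.3.3 and scipy 1.17.1, on constructs above 0 in all replicates. The baseline is the median CC activity of a library and replicate. A single-enhancer value is the median over its constructs with a control in the same position. SD with n = 3 is over values computed in each replicate. Tests were exact two-sided sign-flip permutation tests over libraries, with Benjamini-Hochberg adjustment over 9 tests, and the scripts were tested on simulated data. Libraries share the cell line, fragments and controls, so the p-values measure only how far libraries agreed in sign, weighted by the size of their values. Named pairs are the 5 highest and 5 lowest by mean boost index over the 5 libraries outside S, the 3 highest and 3 lowest by observed over additive activity, and those above controls in the most libraries. Alternatives were other averages, baselines, thresholds of S and of the calls, minimum numbers of single-enhancer constructs, leaving out a replicate or *Fgf5*, and replicates as blocks or units. Primers are from the study's supplementary tables and promoter windows from RefSeq (GRCm38.p6).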

Additional observations from a re-analysis of the deposited data

Results flagged for a closer look

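The difference between weak pairs and pairs of stronger enhancers in observed over additive activity (median log2 ratio) went opposite ways in different libraries. It was above 0 in all 3 replicates with *Klf2*, *Fgf5*, *Nanog* and *Ap1m1* and below 0 in all 3 with *Lefty1* and *Tbx3*. The *Lefty1* and *Tbx3* libraries were used for S, and the others named were not. With *Lefty1* and *Tbx3* the additive expectations of both classes rest on the single-enhancer values that sorted them. The contrast between libraries is thus a description and cannot be assigned to the promoters. The distance between the highest library (*Fgf5*, 0.79) and the lowest (*Tbx3*, -0.12) was 0.912. The difference between libraries was not tested.

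The difference between weak pairs of the same locus and of different loci was above 0 in all 3 replicates with *Fgf5* and below 0 in all 3 with *Sox2*, *Lefty1*, *Klf2* and *Nanog*. The distance between *Fgf5* (0.03) and *Lefty1* (-0.17) was 0.198, and this was not tested either. The *Fgf5* value lies below its own replicates (0.27, 0.53 and 0.30) and ranged from 0.0012 to 0.51 on leaving out a replicate, so the distance rests on an unstable value.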

How the results depend on the processing

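The mean boost index, gain, observed over additive activity, comparisons with mixed pairs, pairs of stronger enhancers and single stronger enhancers kept the sign of their mean under every alternative run. Without replicate 1 the sign was shared by 4 of 5 libraries in place of 5 for the boost index, the comparison with mixed pairs and that with single stronger enhancers, and the last also without replicate 2 (exact permutation tests, p = 0.125 in each). Leaving out a replicate gave 0.55 to 0.58 for the boost index, 0.21 to 0.24 for the gain, 0.27 to 0.33 for observed over additive activity, -0.018 to 0.087 for the same locus against different loci, and -0.019 to 0.015 for the order of fragments. It gave mean shares over libraries of 19.7% to 23.0% above controls (16.3% with all 3), 9.53% to 12.1% above additivity (11.5%) and 1.43% to 1.66% below it (1.65%). For the share above controls, a construct then had to pass only in the replicates kept. That limit is looser, so its rise does not measure stability.

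The same-locus difference (-0.02) turned to 0.044 with the replicate block, 0.044 with the sample as unit, 0.021 with single values over both positions and 0.20 with at least 10 single-enhancer constructs per position. By library it ranged from -0.067 to 0.0048 (*Klf2*), from -0.12 to 0.023 (*Sox2*) and from 0.0012 to 0.51 (*Fgf5*) on leaving out a replicate, and turned to 0.017 (*Sox2*) and -0.12 (*Fgf5*) with arithmetic means, to 3.6e-05 (*Sox2*) with the baseline over all CC constructs, and with *Fgf5* to -0.80 for S below 0.75, -0.092 for the wider threshold of S and -0.077 without overlapping fragments. The order difference (0.01) turned to -0.019 with the baseline over all CC constructs and -0.013 for the wider threshold of S (-0.016 with *Otx2*), and was 0.11 for S below 0.75, above 0 in 7 of 8 libraries (exact sign-flip permutation test, p = 0.0156). The causes were not tested.

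With the sample as unit, which counts 15 samples of 5 libraries as independent, the boost index was 0.53, the gain 0.20, observed over additive activity 0.30, additive against multiplicative 0.056, weak against mixed pairs 0.18, against pairs of stronger enhancers 0.25 and against single stronger enhancers -0.57, all past the threshold of 0.05. Replicates of a library share its plasmids, fragments and controls and are not independent. This setting thus adds no evidence to the tests over libraries. The mean share above controls was 21.3% with arithmetic means, 6.31% for S below 0.75, 26.9% for the wider threshold and 0.157% against the maximum of the CC constructs. The share above additivity was 8.86% with the baseline over all CC constructs, 7.33% for S below 0.75, 14.2% for the wider threshold, 9.19% with at least 10 single-enhancer constructs and 2.04% at a limit of 2 SD. The share below additivity was 1.09%, 2.20% and 1.12% with arithmetic means, the baseline over all CC constructs and S below 0.75, 1.89% without *Fgf5*, 0.943% with single values over both positions and 0.0179% at 2 SD.

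Deviations from the construct means correlated between libraries at a mean of 0.0783 for the same replicate number, from -0.14 to 0.268 over 84 correlations, and -0.0389 for different numbers, where centring on 3 replicates itself makes the latter negative. In all, 20 of 24 samples, each a replicate of a library with its runs joined, correlated best with their own number out of 3. This is a hint of sharing from the data and not from the design. Nodal_E157 with Otx2_E110, picked from the named pairs, was lowest in replicate 2 in 8 of 8 libraries. Otx2_E110 with Nanog_E065, Tbx3_E206 and Pou5f1_E079 was so in 6 of 8, 5 of 8 and 5 of 7. Named pairs without Otx2_E110 were so in 1 to 3 libraries. Since not every correlation was above 0.1, the samples were treated as sharing only a number. With the replicate block the shares were 29.4% above controls, 8.99% above and 1.32% below additivity, and the boost index was 0.53. Each replicate was judged alone there, which loosens the limit for the share above controls. The baseline over all CC constructs could not be fitted with *Fgf5*, where it is 0. Depth is unknown, so counting error could not be separated from replicate spread.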
